A study of Mus musculus with 2 samples.

Results

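The genes described here encode the collagens, the laminins and a set of vessel-wall matrix proteins, followed through the endothelial cells of the mouse adrenal gland. Members were taken by name: every gene symbol of the forms Col-number-a-number and Lam-a/b/c-number, together with Nid1, Nid2, Hspg2, Sparc, Fn1, Fbln2, Fbln5, Mgp, Eln, Bgn, Hmcn1 and Tnxb. Of 54838 genes in the files, 67 matched, and the 42 with at least 20 unique molecular identifiers (UMIs, each standing for 1 captured transcript) over both libraries were kept. Lama1 (20 UMIs) and Col6a1 (24) were just inside this limit, and Col9a3 (19) and Col5a3 (16) just outside it. By role, 19 members belong to the basement membrane, 4 to elastic fibres and calcification control, 7 to the fibrillar and associated collagens, 3 to the membrane-spanning collagens, 3 to the microfibril and network collagens and 6 to none of these groups.

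The series examines adrenal endothelial diversity in relation to VEGF-A from macrophages. Endothelial cells were sorted as viable CD31+ CD45- cells from the glands of female mice aged 12 weeks and were profiled by 10x Genomics single-cell RNA sequencing in 2 libraries. One library came from wild-type (WT) mice and the other from mice labelled VEGF/LysM. LysM is another name of Lyz2, a gene of macrophages and other myeloid cells. The labels state neither the allele or driver behind VEGF/LysM, nor the strain, nor how many mice were pooled. With 1 library per genotype there was no replicate, so each difference below is between these 2 libraries and not between genotypes, and no p-value is given. Intervals are exact 95% intervals that cover counting error only.

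After filtering, 5685 WT and 3531 VEGF/LysM cells were endothelial, with a median of 1154 and 2286 UMIs per cell. The WT library was thus the shallower one, with fewer UMIs in each cell but 7416981 endothelial UMIs in all, against 8908775. Where a sentence gives a pair of values, the WT library comes first. Levels are UMIs scaled to 1000000 UMIs of the same cells (CPM), and are compared only within a gene, since capture of transcript ends differs from gene to gene. Cells were clustered with all 67 matching genes left out, so vessel classes were not defined by the genes described. Plvap-high cells, named for the diaphragm protein of fenestrated endothelium, numbered 3967 in WT and 2030 in VEGF/LysM. Capillary-like cells, with Cd36, Car4 and Rbp7, numbered 853 and 760. Arterial-like cells numbered 244 and 243, and tip-like cells, with Apln and Kcne3, 332 and 213. A mixed cluster of lymphatic and venous cells held 60 and 75, too few for the rule that a compared class has 100 cells in each library, and 229 and 210 cells lay in endothelial clusters given no vessel name. These include cluster 15 (63 and 50 cells), led by haemoglobin genes, and cluster 17 (10 and 10 cells), led by proliferation genes. Endothelial markers in these unnamed clusters summed to 11452 and 9946 CPM, and haemoglobin and other erythroid markers to 8328 and 14692 CPM. The 15 arterial markers summed to 7134 and 7467 CPM in arterial-like cells and to at most 1403 CPM in the other compared classes. The 10 markers of fenestrated cells were as high in tip-like cells (8352 and 8103 CPM) as in Plvap-high cells (7925 and 8040 CPM). They summed to 2742 and 2762 CPM in the lymphatic and venous cluster. With both libraries pooled, Plvap alone was at 1604 CPM in that cluster and 841 CPM in tip-like cells. It ran from 1052 to 1697 CPM in the Plvap-high clusters, so Plvap does not set them apart from the lymphatic and venous cluster. Cells with myeloid, mural, adrenocortical and lymphoid genes had passed the sort in small numbers and were left out of the endothelium. The files held 6276 WT and 3807 VEGF/LysM barcodes, of which 10 occurred in both.

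Endothelial cells rest on a basement membrane that they help to make. Type IV collagen and laminin form its networks, and nidogens and the proteoglycan perlecan (Hspg2) join them. Laminins are trimers of an alpha, a beta and a gamma chain, and the alpha chain sets most of the receptor binding. Arteries add elastic fibres, in which elastin (Eln) is laid down with the help of fibulins, while matrix Gla protein (Mgp) restrains calcification of the wall. Fenestrated vessels of endocrine glands have a thin, continuous basement membrane through which hormones pass.

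The promoters of 5 members that stood highest in a vessel class, and whose window held no annotated exon, are shown because the results below are organised by those classes. Each is the 250 bases before a RefSeq start site (GRCm38.p6), 5′ to 3′ on the gene's strand, with capitals marking any match, on either strand, to the CCAAT box, the GC box with the letters GGGCGG, the TATA box with the letters TATAAA, the core of ETS-factor sites with the letters CCGGAA or the core of RBPJ sites with the letters TGGGAA. Fbln5 stands for the arterial-like class, Bgn and Col13a1 for the Plvap-high class, Col8a1 for the capillary-like class and Col15a1 for the tip-like class.
Fbln5, chr12:101819120-101819369, minus strand: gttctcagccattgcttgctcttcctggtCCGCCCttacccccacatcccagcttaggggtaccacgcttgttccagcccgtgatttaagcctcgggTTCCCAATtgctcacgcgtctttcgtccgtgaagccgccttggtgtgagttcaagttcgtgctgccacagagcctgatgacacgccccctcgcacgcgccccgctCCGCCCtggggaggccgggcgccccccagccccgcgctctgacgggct
Bgn, chrX:73483351-73483600, plus strand: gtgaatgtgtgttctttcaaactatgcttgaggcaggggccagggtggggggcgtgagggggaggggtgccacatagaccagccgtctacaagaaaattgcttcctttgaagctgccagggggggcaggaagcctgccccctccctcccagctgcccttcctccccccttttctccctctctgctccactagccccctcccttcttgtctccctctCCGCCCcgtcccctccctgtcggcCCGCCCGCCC
Col13a1, chr10:61979109-61979358, minus strand: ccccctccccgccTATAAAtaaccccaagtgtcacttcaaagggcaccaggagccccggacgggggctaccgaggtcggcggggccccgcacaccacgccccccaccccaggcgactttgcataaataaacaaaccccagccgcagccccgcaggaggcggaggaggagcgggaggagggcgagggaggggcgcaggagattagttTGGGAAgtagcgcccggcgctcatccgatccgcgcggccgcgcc
Col8a1, chr16:57754738-57754987, minus strand: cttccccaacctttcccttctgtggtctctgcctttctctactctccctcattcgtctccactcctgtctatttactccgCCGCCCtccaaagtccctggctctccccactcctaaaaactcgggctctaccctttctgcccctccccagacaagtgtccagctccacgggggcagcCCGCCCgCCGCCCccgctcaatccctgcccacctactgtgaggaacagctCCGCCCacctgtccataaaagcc
Col15a1, chr4:47207762-47208011, plus strand: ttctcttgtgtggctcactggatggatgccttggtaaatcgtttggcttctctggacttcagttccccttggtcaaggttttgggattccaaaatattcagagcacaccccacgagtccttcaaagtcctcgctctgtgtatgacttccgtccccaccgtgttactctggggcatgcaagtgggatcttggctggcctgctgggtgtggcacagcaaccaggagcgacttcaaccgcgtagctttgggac
The GC box was found 2 times in the Fbln5 window, 3 times in that of Bgn and 4 times in that of Col8a1, and the RBPJ core once each in those of Fbln5 and Col13a1. In the Fbln5 window the RBPJ core and the CCAAT box overlap, as do 2 GC boxes in that of Bgn. Col13a1 held 1 TATA box, and none of the letters searched was in the Col15a1 window. Over 32851 windows of the same length, 32.7% held the GC box, 33.8% the CCAAT box, 21.6% the RBPJ core, 12.4% the TATA box and 12.0% the ETS core. These matches describe letters only. Of the 32 members given with full values, 21 had a window in the RefSeq table.

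Among the 4 compared classes, the elastic genes were highest in arterial-like cells, while basement-membrane genes differed from one another in their class. A member was called higher or lower in a class when its level differed at least 2-fold from the rest of the endothelium of the same library, in the same direction in both libraries and with both intervals beyond equal levels. This could be asked of 33 members with at least 20 endothelial UMIs in each library. Arterial-like cells had 11 members higher and 9 lower, where 3.15% and 3.69% of all 12405 genes measured were. Tip-like cells had 5 higher and 11 lower (0.983% and 2.39% of all genes). Plvap-high cells had 5 higher and 11 lower (2.39% and 5.19%), and capillary-like cells 3 higher and 13 lower (4.41% and 6.98%). The class with the highest level was the same in both libraries for 27 of the 33 members. It was the arterial-like class for 10, the tip-like class for 9, and the Plvap-high and capillary-like classes for 4 each. No counts of the highest class over all genes are set beside these, so they do not show a trait of the members. The 4 elastic members were all called higher in arterial-like cells and lower in Plvap-high cells and tip-like cells. Their summed level was 952 and 1337 CPM in arterial-like cells and, from few cells, 1240.5 and 1539.5 CPM in the lymphatic and venous cluster. Basement-membrane members leaned the other way: their median log2 difference between arterial-like cells and the rest was -0.81 in WT and -0.99 in VEGF/LysM, against -0.11 and -0.09 over all genes. In tip-like cells the median of the 16 measured basement-membrane members was 0.53 and 0.61, against -0.06 and -0.05 over all genes. In capillary-like cells it was -0.29 and -0.17, against -0.09 and -0.09 over all genes, with 0 of 16 members higher and 6 lower. The summed level of the basement-membrane members was 5456 and 5675 CPM in tip-like, 4578 and 4727 in capillary-like, 3437 and 3415 in Plvap-high and 2959 and 2579 CPM in arterial-like cells. In capillary-like cells Col4a1 and Col4a2 alone made up 1591 and 1774 CPM and 1220 and 1214 CPM of that sum.

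**Figure D1:**
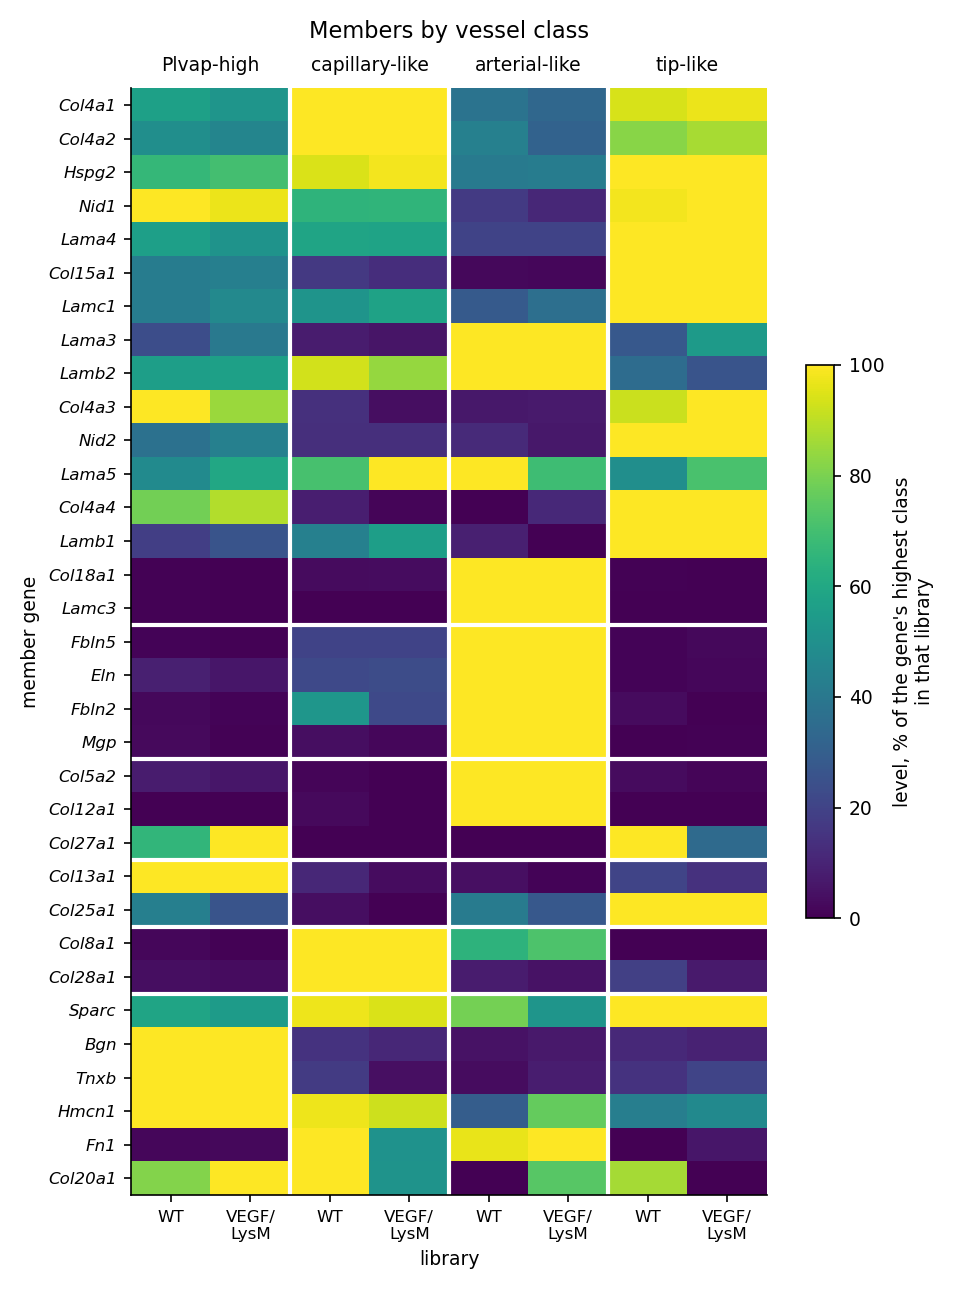
Level of each of the 33 measured members (rows, grouped by role with white lines between groups) in 4 vessel classes and both libraries (columns), as a percent of the gene's highest class in that library. The elastic members, Col18a1, Lamc3, Col5a2 and Col12a1 reach 100% in the arterial-like columns, while Bgn, Tnxb and Col13a1 do so in the Plvap-high columns.

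The main chains of endothelial type IV collagen were counted in every class. Col4a1 stood in WT at 906 CPM in Plvap-high, 1591 in capillary-like, 607 in arterial-like and 1495 in tip-like cells, and in VEGF/LysM at 926, 1774, 591 and 1721 CPM. Its partner chain Col4a2 followed, at 600, 1220, 532 and 1003 CPM in WT and 553, 1214, 380 and 1053 CPM in VEGF/LysM. Capillary-like cells were thus high and arterial-like cells low for both chains in both libraries. Their excess in capillary-like cells over the rest was 1.68- and 1.79-fold for Col4a1 and 1.93- and 1.99-fold for Col4a2, short of the 2-fold limit. Myeloid-like cells, which were left out of the endothelium, held Col4a1 at 598 and 527 CPM and Col4a2 at 406 and 302 CPM. The 9 pan-endothelial markers summed to 6753 and 6507 CPM in them, against 8368 and 7689 CPM in arterial-like cells. Myeloid-like cells thus held endothelial transcripts too and cannot serve as a gauge of carried-over RNA. The part of carried-over RNA in the levels of Col4a1 and Col4a2 was not tested. Both genes lie head to head on chromosome 8 (GRCm38). The start of Col4a2 on the plus strand is at 11312805 and that of Col4a1 on the minus strand at 11312826, so their first exons overlap. Whether the counting was strand-aware is stated neither in the labels nor in the file headers, and 14 members share an exon position with a gene on the other strand. Col4a2 made up 39.9% of the UMIs of the pair in WT Plvap-high cells and between 38.0% and 46.7% in the other class and library combinations except VEGF/LysM Plvap-high cells (37.4%).

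The chains Col4a3 and Col4a4, better known from the filtration barrier of the kidney, had another distribution. Col4a3 stood at 102 and 95.3 CPM (533 and 513 UMIs) in Plvap-high cells and at 94.0 and 112 CPM in tip-like cells. In capillary-like cells it was at 14.1 and 4.01 CPM and in arterial-like cells at 6.78 and 8.23 CPM, from 2 and 5 UMIs. Plvap-high cells exceeded the rest 2.48-fold in WT and 2.83-fold in VEGF/LysM. Col4a4 behaved alike, at 45.1 and 38.1 CPM in the Plvap-high class and 57.2 and 43.0 CPM in tip-like cells, with 0 UMIs in WT arterial-like cells, which allows up to 10.2 CPM, and 3 in VEGF/LysM. The Plvap-high and tip-like classes, where the markers of fenestrated cells summed highest, therefore held most endothelial UMIs of this pair. Both chains were among the members called higher in Plvap-high cells. Most of those calls were lost with finer clustering, as given in the closing section. The pair is also head to head, with starts 72 bases apart on chromosome 1 (Col4a3 at 82586921 on the plus strand, Col4a4 at 82586849 on the minus strand).

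Perlecan, the large heparan sulfate proteoglycan encoded by Hspg2, was at 492 and 491 CPM in Plvap-high, 698 and 689 in capillary-like, 739 and 701 in tip-like and 305 and 295 CPM in arterial-like cells. Sparc, a collagen-binding matricellular protein, was at 1025 and 1011 CPM in Plvap-high, 1709 and 1734 in capillary-like and 1757 and 1839 in tip-like cells. Both genes were counted in every class. Myeloid-like cells, which also held endothelial markers, had 323 and 231 CPM of Hspg2 and 752 and 613 CPM of Sparc. In Plvap-high, capillary-like and tip-like cells the intervals of the library ratios of both genes included equal levels.

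Laminin chains were split between classes. Among the alpha chains, Lama4, the typical endothelial chain, stood at 198 and 189 CPM in Plvap-high and 351 and 368 CPM in tip-like cells but at 71.2 and 74.1 CPM in arterial-like cells, 3.03- and 2.90-fold below the rest. Lama3, a chain best known from epithelial laminin, was at 498 and 403 CPM in arterial-like cells, 4.64- and 3.02-fold above the rest. It was at 118 and 163 CPM in Plvap-high, 137 and 219 in tip-like and 37.7 and 22.9 CPM in capillary-like cells. Shares of the UMIs of a chain group are set side by side across classes only, since chains differ in capture. Lama3 made up 71.4% (interval 64.7% to 77.4%) of laminin alpha UMIs in WT arterial-like cells and 73.6% (68.5% to 78.2%) in VEGF/LysM. In capillary-like cells its share was 11.5% and 7.08%, in tip-like cells 25.2% and 33.8%, and in Plvap-high cells 31.7% and 40.2%. With each cell thinned to 1000 UMIs and shallower cells left out (102 WT and 29 VEGF/LysM arterial-like, 475 and 81 capillary-like cells), Lama3 was found in 35.2% and 26.6% of arterial-like cells (unthinned 39.3% and 51.4%) and in 3.70% and 2.06% of capillary-like cells (unthinned 4.22% and 3.68%). Lama5, the alpha chain of mature vessels, was at 53.6 and 51.5 CPM in Plvap-high and 79.2 and 86.0 CPM in capillary-like cells, and in arterial-like cells at 112 and 59.3 CPM.

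**Figure D2:**
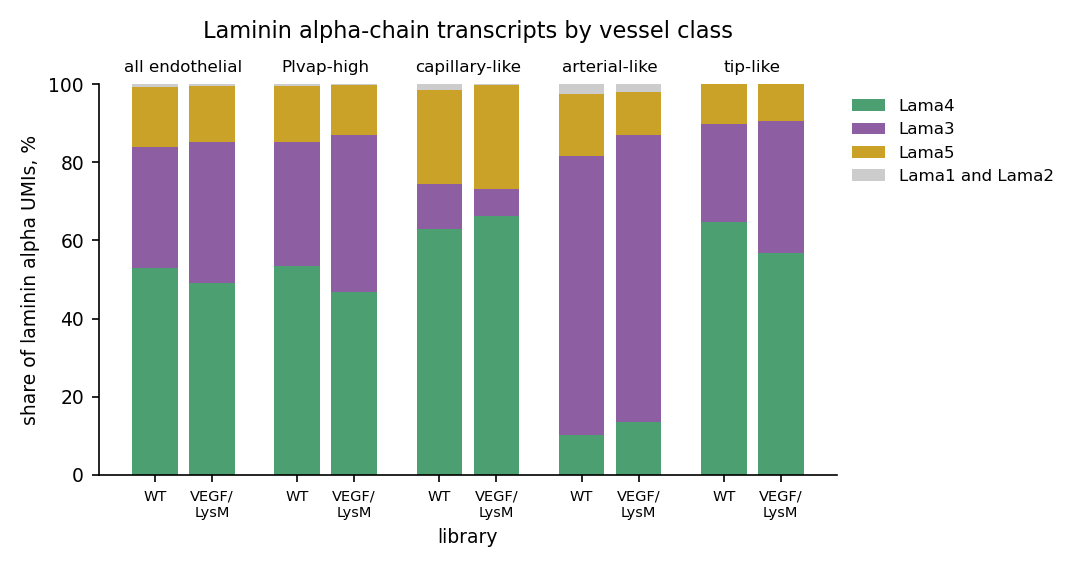
Share of laminin alpha-chain UMIs taken by each alpha gene (stacked bars, percent), in all endothelial cells and 4 vessel classes, for both libraries. Lama3 takes 71.4% and 73.6% in arterial-like cells and 11.5% and 7.08% in capillary-like cells.

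The beta and gamma chains showed class patterns of their own. Lamb1 stood at 75.6 and 73.7 CPM in tip-like cells, 4.55- and 3.22-fold above the rest, while Lamb2 was at 49.0 and 47.6 CPM there and at 139 and 183 CPM in arterial-like cells. Lamb1 took 60.7% and 60.8% of the UMIs of the pair in tip-like cells, 15.2% and 15.5% in Plvap-high and 20.3% and 21.1% in capillary-like cells. In arterial-like cells it had 2 UMIs in WT and 0 in VEGF/LysM, which allows up to 4.94 CPM. Lamc1, the gamma chain of most laminins, was at 333 and 293 CPM in tip-like cells, 2.34- and 2.04-fold above the rest, and at 140 and 138 CPM in Plvap-high cells. Lamc3 was detected almost only in arterial-like cells, which held 28 of its 30 endothelial UMIs in WT and 41 of 42 in VEGF/LysM. Lamc3 and Lama3 each overlap an annotated antisense gene.

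The nidogens, and the paired collagens that release anti-angiogenic fragments, also differed by class. Nid1, the main nidogen, was at 420 and 399 CPM in Plvap-high and 413 and 411 in tip-like cells and at 71.2 and 46.1 CPM in arterial-like cells, 5.54- and 7.94-fold below the rest. Nid2 was at 196 and 175 CPM in tip-like cells, 3.12- and 3.06-fold above the rest, and took 32.2% and 29.8% of nidogen UMIs there against 14.9% and 16.1% in Plvap-high cells. Col15a1, source of restin, was at 456 and 393 CPM in tip-like, 191 and 170 in Plvap-high, 76.4 and 52.2 in capillary-like and 10.2 and 6.59 CPM in arterial-like cells. Col18a1, its relative and the source of endostatin, was highest where Col15a1 was lowest, at 366 and 329 CPM in arterial-like cells against 1.73 and 0.743 CPM in Plvap-high and 11.3 and 11.5 CPM in capillary-like cells, with 1 and 0 UMIs in tip-like cells. Arterial-like cells held 80.0% of the endothelial Col18a1 UMIs in WT and 85.8% in VEGF/LysM.

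Elastic members were highest in the arterial-like and the lymphatic and venous cells. Fbln5, the fibulin that tethers elastin to cells, stood at 502 and 548 CPM in arterial-like, 102 and 111 in capillary-like and 4.03 and 3.90 CPM in Plvap-high cells. Its excess in arterial-like cells was 22.6- and 15.9-fold over the rest. Fbln2, another fibulin of the inner elastic layer, was at 146 and 240 CPM in arterial-like, 76.4 and 53.3 in capillary-like and 2.88 and 2.60 CPM in Plvap-high cells. Eln itself was at 176 and 173 CPM in arterial-like, 38.7 and 40.1 in capillary-like and 15.7 and 10.6 CPM in Plvap-high cells. Mgp was at 129 and 375 CPM in arterial-like cells and at 3.07 and 2.23 CPM in Plvap-high cells. The small lymphatic and venous cluster also held them, with Eln at 522 and 686 CPM (40 and 119 UMIs), Fbln5 at 300 and 346, Mgp at 235 and 288 and Fbln2 at 183 and 219 CPM. Few cells stood behind these levels. The 5 fullest cells held 45% and 58.0% of the Eln UMIs there, with 34 in 1 VEGF/LysM cell, and 77.8% and 58% of the Mgp UMIs. With cells thinned to 1000 UMIs, Fbln5 was found in 26.8% of WT and 42.1% of VEGF/LysM arterial-like cells (unthinned 34.02% and 63.0%), and in 0.299% and 0.255% of Plvap-high cells (unthinned 0.479% and 0.985%). Thinning left out 1294 WT and 70 VEGF/LysM Plvap-high cells as too shallow, so the thinned shares cover unlike parts of the class in the libraries.

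**Figure D3:**
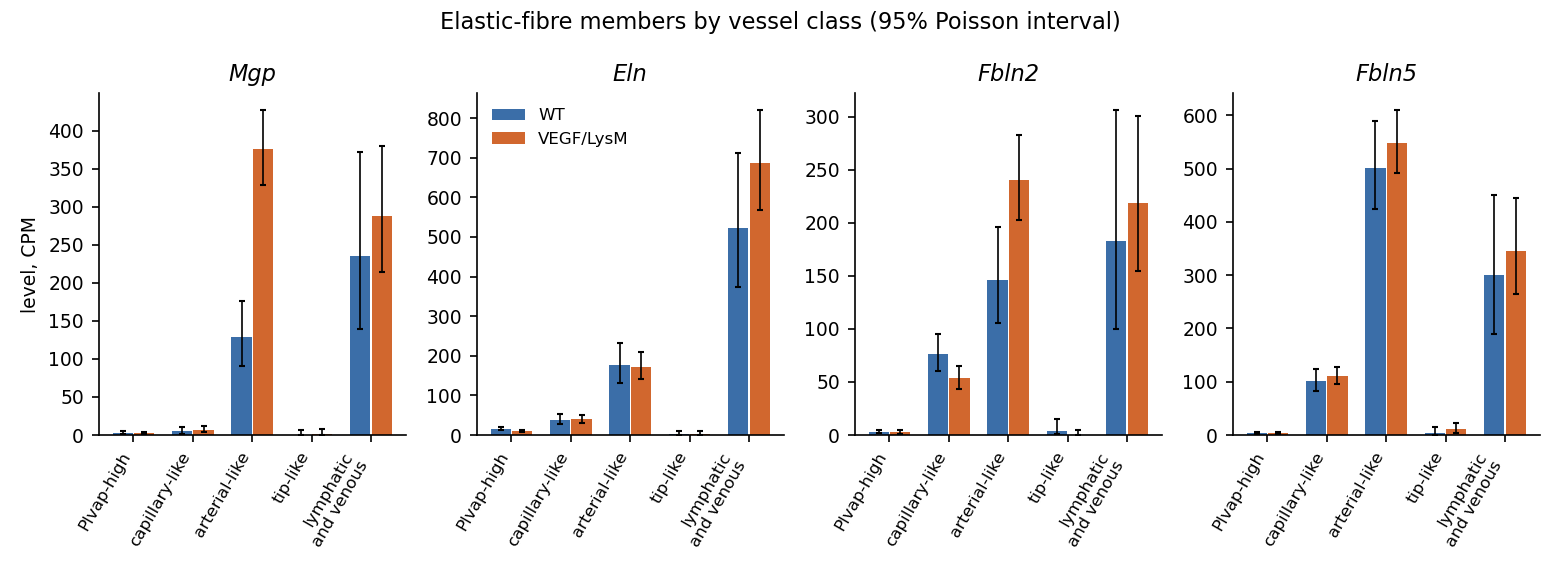
Level in CPM (bars, with exact Poisson 95% intervals) of the 4 elastic members in 5 vessel classes and both libraries. All 4 genes are higher in the arterial-like and the lymphatic and venous classes than in Plvap-high cells, and Mgp in arterial-like cells is at 129 CPM (WT) and 375 CPM (VEGF/LysM).

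Cells of other types that make these proteins were measured in the same libraries. Mural-like cells, of which 7 were retained, held Mgp at 956 and 2448 CPM, from 28 UMIs in all. Mgp was also counted in myeloid-like cells (0 and 15 UMIs, 0 and 33.1 CPM). The cells with adrenocortical or lymphoid genes held 1 and 28 Mgp UMIs (8.81 and 66.5 CPM). The 9 mural markers summed to 30.5 and 18.1 CPM in arterial-like cells, with 8 of 9 at 0 in WT and 4 of 9 in VEGF/LysM, and Acta2, Myh11, Notch3 and Higd1b at 0 in both. In all endothelial cells they summed to 91.7 and 76.1 CPM. The 8 fibroblast and capsule markers summed to 14.8 and 17.1 CPM in all endothelial cells and to 186 and 160 CPM in arterial-like cells, with 7 and 6 of 8 at 0, among them Pdgfra, Dcn and Lum in both libraries. No list gene other than Pi16 and Clec3b had UMIs in arterial-like cells, so the higher sums there came from these genes. Whether transcripts of other cells contributed to a difference between the libraries was not tested.

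Fibrillar and network collagens were sparse and class-bound. Col5a2, a minor chain of fibrils, was at 207 and 239 CPM in arterial-like cells, 15.02- and 21.3-fold above the rest. Col12a1, which coats fibrils, had 31 of its 36 endothelial UMIs there in WT and 43 of 44 in VEGF/LysM. Col8a1, a network collagen of vessel walls, was at 131 and 95.7 CPM in capillary-like and 84.7 and 69.2 CPM in arterial-like cells and at 2.11 and 0.558 CPM in Plvap-high cells. Col28a1 was at 43.4 and 65.4 CPM in capillary-like cells, 17.2- and 18.01-fold above the rest. Fn1, fibronectin, was at 24.5 and 12.6 CPM in capillary-like and 23.7 and 24.7 CPM in arterial-like cells, from 26, 22, 7 and 15 UMIs, and at 0.384 and 0.558 CPM in Plvap-high cells. Among endothelial clusters, Fn1 was highest in the lymphatic and venous cluster in both libraries. Myeloid-like cells held 80 of the 174 Fn1 UMIs of all retained cells, at 248 and 30.9 CPM. Their part in the Fn1 levels of endothelial cells was not tested. Col25a1, a membrane-spanning collagen, was at 24.5 and 47.6 CPM in tip-like cells, from 12 and 31 UMIs, 2.57- and 5.04-fold above the rest. Col27a1, a fibrillar collagen, had 29 and 27 endothelial UMIs and none in capillary-like cells, where it was called lower, and Col20a1 (29 and 31 UMIs) was called in no class.

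Of the 42 members, 9 missed the minimum of 50 UMIs over both libraries in endothelial cells: Lama1, Lama2, Col4a5, Col1a2, Col3a1, Col5a1, Col14a1, Col6a1 and Col23a1. Several of these lay mainly outside the endothelium. The 42 WT and 60 VEGF/LysM retained cells with adrenocortical or lymphoid genes held 85 of 117 Lama2 UMIs, 29 of 37 Col4a5 UMIs and 15 of 20 Lama1 UMIs of all retained cells. The interstitial collagens Col1a2 and Col3a1 had 29 and 34 UMIs in all retained cells, of which 20 and 22 were in those same cells and 7 and 8 in the 7 mural-like cells.

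Among the 4 compared classes, Bgn, Tnxb and Col13a1 were highest in Plvap-high cells. Bgn, the proteoglycan biglycan, stood at 211 and 143 CPM there, 3.00- and 2.37-fold above the rest. It was at 31.1 and 16.1 CPM in capillary-like and 10.2 and 9.88 CPM in arterial-like cells, yet at 1032 and 876 CPM in the lymphatic and venous cluster. Tnxb, tenascin-X, was at 97.7 and 82.5 CPM in the Plvap-high class and between 3.39 and 16.98 CPM in the other 3 compared classes of both libraries. Tnxb overlaps the pseudogene Cyp21a2-ps on the other strand. Col13a1, a membrane-spanning collagen of cell contacts, was at 171 and 182 CPM against 38.5 and 23.5 CPM in the rest. The lymphatic and venous cluster held Col13a1 at 131 and 190 CPM (10 and 33 UMIs) and Tnxb at 65.3 and 92.3 CPM (5 and 16 UMIs), so neither gene is particular to Plvap-high cells. When cells were clustered more finely, 309 WT and 224 VEGF/LysM cells were named lymphatic and venous, and Bgn was then no longer higher in Plvap-high cells (mean log2 difference -0.029 against 1.42), while Col13a1 was at 1.31 (against 2.55). Most of the members called higher in Plvap-high cells lost that call with this clustering, as given in the closing section.

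Within the Plvap-high class, members differed between clusters. Hmcn1, hemicentin, was at 219 and 234 CPM in cluster 1 and 146 and 104 CPM in cluster 3, and at most 13.8 CPM in the other 4 clusters of both libraries. Bgn ran the other way, at 11.4 and 11.1 CPM in cluster 1, 26.4 and 14.8 in cluster 3, 319 and 243 in cluster 6 and 536 and 515 CPM in cluster 9. Tnxb and Col13a1 were also highest in cluster 9, at 228 and 259 CPM and at 280 and 329 CPM. Lama3 was highest in clusters 1 (205 and 231 CPM) and 3 (163 and 220 CPM), and lowest in clusters 6 (63.6 and 102) and 9 (71.2 and 63.8 CPM). Cluster 3 was led by Esm1, Npr3 and Cyp26b1, cluster 6 by Sele, Vcam1 and immediate-early genes, and cluster 9 by Sema3d, Oit3 and Nlgn1. Col4a3 showed no such split and stood between 68.5 and 139 CPM in all 6 clusters of both libraries.

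**Figure D4:**
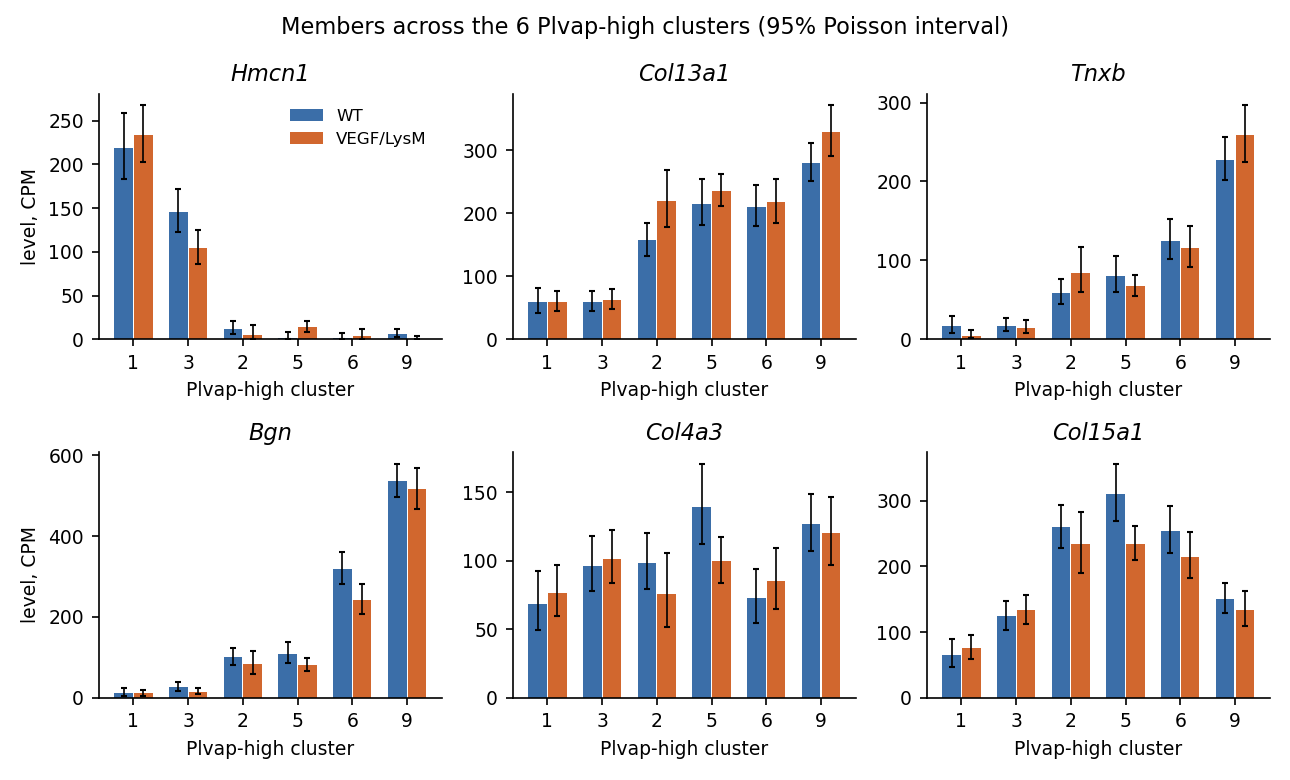
Level in CPM (bars, with exact Poisson 95% intervals) of 6 members in the 6 Plvap-high clusters of both libraries. Hmcn1 is above 100 CPM in clusters 1 and 3 and at most 13.8 CPM in the others, and Bgn, Tnxb and Col13a1 are highest in cluster 9.

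Between the libraries, 12 of the 16 measured basement-membrane members were not called when all endothelial cells were pooled, while 3 were higher and 1 was lower. A ratio was called when its log2 was at least 0.32 in size (a 5 to 4 ratio of levels) with its interval beyond equal levels, for genes with at least 50 UMIs over both libraries in those cells. Of 33 measured members, 8 were higher in VEGF/LysM, where 6.59% of all 12283 measured genes were, and 3 were lower, where 6.97% were. The median log2 ratio was 0.00 over the 16 basement-membrane members and 0.71 over the 4 elastic members, against -0.03 over all measured genes. Col4a1 was at 1040 and 1146 CPM (log2 0.14, interval 0.10 to 0.18), within that limit. Hspg2 was at 527 and 528 CPM (log2 0.00, -0.06 to 0.06), Sparc at 1190 and 1203 CPM (0.02, -0.02 to 0.06), Lamc1 at 155 and 155 CPM (-0.00, -0.12 to 0.11) and Lama4 at 210 and 205 CPM (-0.04, -0.13 to 0.06). For these 5 genes the intervals stay within the limit on both sides. Other basement-membrane members went either way short of it, with Lama3 at 123 and 152 CPM (0.31, 0.19 to 0.43), Col15a1 at 182 and 147 CPM (-0.31, -0.43 to -0.20) and Col4a3 at 84.1 and 70.9 CPM (-0.25, -0.41 to -0.08), so the median of 0.00 is over members of both directions.

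The elastic members were all higher in the VEGF/LysM library. Mgp was at 10.7 CPM in WT (79 UMIs) and 34.2 CPM in VEGF/LysM (305 UMIs), 3.21-fold higher (log2 1.68, 1.32 to 2.06). Fbln5 was at 41.3 and 69.6 CPM (log2 0.75, 0.55 to 0.96), Fbln2 at 21.2 and 33.7 CPM (0.67, 0.39 to 0.96) and Eln at 29.8 and 41.1 CPM (0.46, 0.22 to 0.71). All 4 were called higher in arterial-like cells than in the rest (4.29% of endothelial cells in WT, 6.88% in the other library), and were at 183 CPM or more in the lymphatic and venous cluster, which made up 1.06% and 2.12%. Fbln2 and Fbln5 were also at over 50 CPM in capillary-like cells (15.004% and 21.5%), where Mgp was called lower than in the rest. Arterial-like cells held 52 of 221 WT and 105 of 366 VEGF/LysM Eln UMIs, and the lymphatic and venous cluster 40 and 119. Of those 119, 34 were in 1 cell. The classes were clustered on genes that themselves differ between the libraries, so these shares serve only as the weights of the pooled levels. With both libraries given the same mix of classes (each class weighted by its mean share over the libraries), Fbln5 was at log2 0.14, Fbln2 at 0.11, Eln at 0.02 and Mgp at 1.02, and the median of the 4 was 0.12. Col18a1, at 18.2 and 26.2 CPM (log2 0.52, 0.21 to 0.84) when pooled, was then at -0.18.

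**Figure D5:**
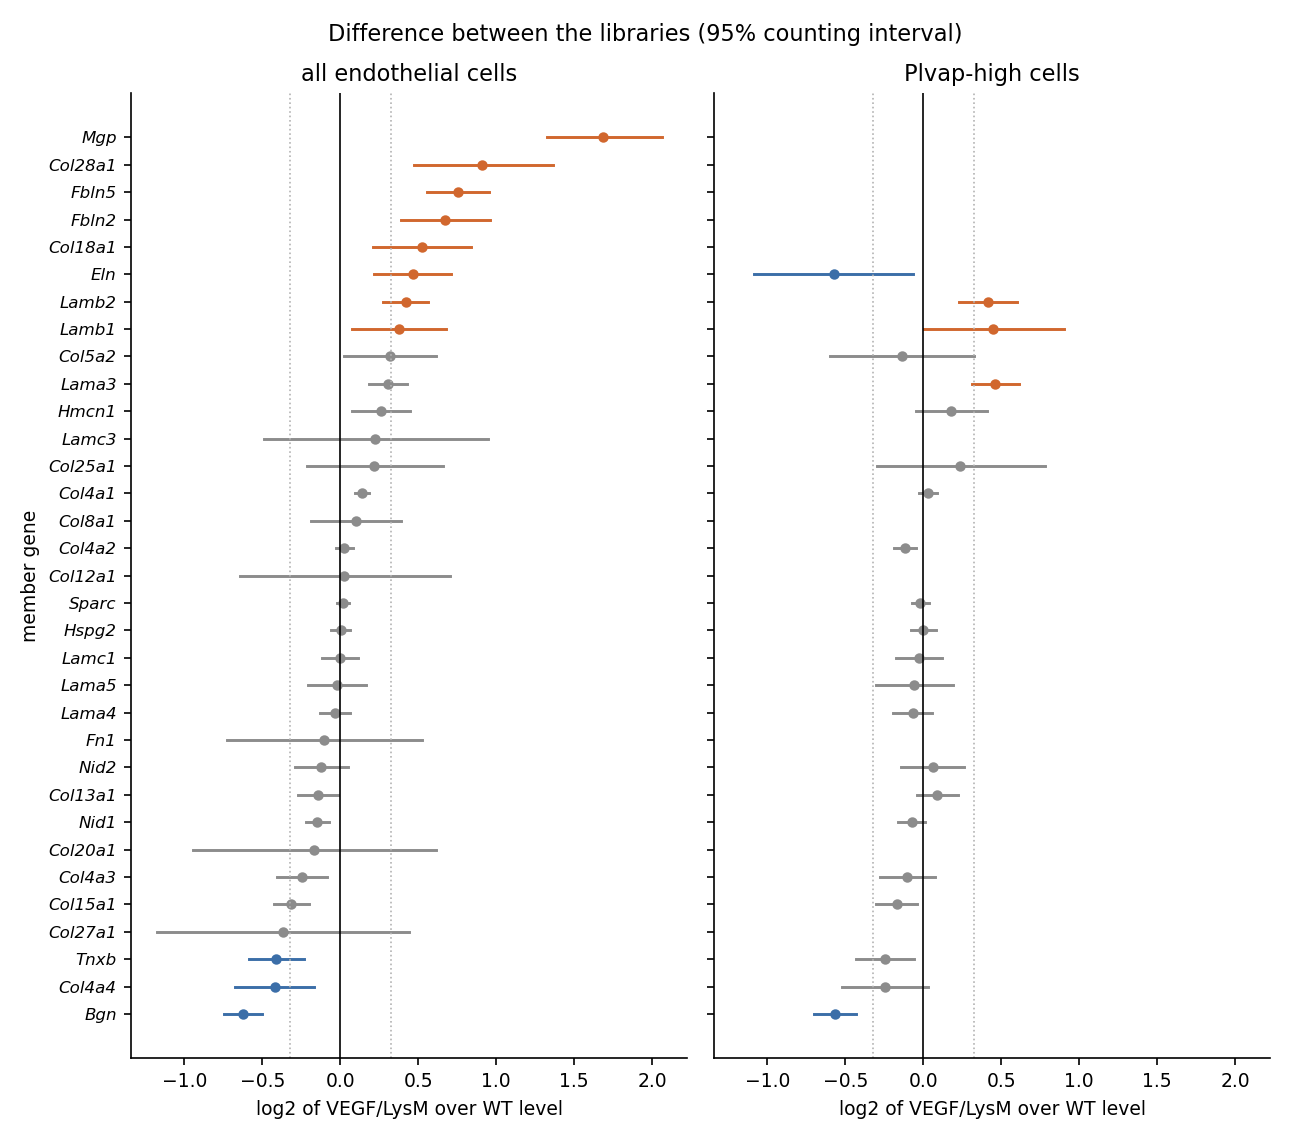
Log2 of the VEGF/LysM level over the WT level (points, with 95% counting intervals) for measured members in all endothelial cells (left) and in Plvap-high cells (right). Orange and blue mark members called higher and lower, dotted lines the limits at 0.32, and members not measured in Plvap-high cells have no point there. Mgp lies at 1.68 and Bgn at -0.62 on the left.

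The other calls in all endothelial cells were in part kept with the same mix. Col28a1 was at 8.36 and 15.7 CPM (log2 0.91, 0.47 to 1.37), Lamb2 at 87.1 and 117 CPM (0.42, 0.28 to 0.56) and Lamb1 at 20.5 and 26.6 CPM (0.38, 0.08 to 0.68). With the same mix they stood at 0.56, 0.35 and 0.33 and, with Mgp, were the 4 members still called higher. Of the 3 lower members, Bgn was at 169 and 110 CPM (log2 -0.62, -0.74 to -0.50), Col4a4 at 36.8 and 27.5 CPM (-0.42, -0.68 to -0.17) and Tnxb at 74.3 and 55.9 CPM (-0.41, -0.59 to -0.23). Bgn stayed called with the same mix (-0.55), Col4a4 (-0.26) and Tnxb (-0.25) did not, and Fn1, Col12a1 and Col8a1 were then called lower. No share over all genes is set beside the calls with the same mix, here or within Plvap-high cells. The number of these calls is therefore no result about the members as a group.

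Within Plvap-high cells, 3 of 22 measured members were higher in VEGF/LysM (5.58% of 11146 genes) and 2 were lower (6.59%). Lamb2 was at 78.1 and 104 CPM (log2 0.41, 0.23 to 0.60), Lama3 at 118 and 163 CPM (0.46, 0.31 to 0.61) and Lamb1 at 14.01 and 19.1 CPM (0.45, 0.00 to 0.90). Each is a laminin chain, and Lama4, Lama5 and Lamc1 were at log2 -0.07, -0.06 and -0.03 in the same cells. Bgn was at 211 and 143 CPM (log2 -0.57, -0.70 to -0.43) and Eln at 15.7 and 10.6 CPM (-0.57, -1.09 to -0.07). Cluster 9, where Bgn is highest among these cells, held 22.1% of WT and 14.7% of VEGF/LysM Plvap-high cells. Within it Bgn was at 536 and 515 CPM (log2 -0.06, -0.24 to 0.12). Over the endothelial clusters of any class with at least 20 Bgn UMIs, Bgn was lower in VEGF/LysM in 8 of 8. That count takes direction only, without regard to counting error. Its clusters come from the same libraries and are not replicates, and no share over all genes is set beside it. With the same mix of the 6 clusters Bgn was at -0.19, Lama3 at 0.29, Lamb1 at 0.26 and Lamb2 at 0.42, and only Lamb2 was still called, with no member lower. Lama3 was higher in VEGF/LysM in clusters 3 (log2 0.43, 0.13 to 0.73), 5 (0.55, 0.18 to 0.93) and 6 (0.68, 0.14 to 1.23), by intervals that lie above equal levels, and at 0.17, -0.04 and -0.16 in clusters 1, 2 and 9.

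In arterial-like cells, 2 of 18 measured members were higher (4.91% of 3913 genes) and 3 were lower (5.52%). Mgp had 38 UMIs (129 CPM) in the WT library and 228 UMIs (375 CPM) in the other, 2.92-fold higher (log2 1.54, 1.04 to 2.08). The Mgp UMIs came from 24 of 244 WT cells and 48 of 243 VEGF/LysM cells, the fullest cell held 4 and 33, and the 5 fullest cells held 39.5% and 39.9%. The interval treats UMIs as independent and is therefore too narrow for this gene. With cells thinned to 1000 UMIs, Mgp was found in 8.45% (4.44% to 14.3%) of WT and 13.1% (8.87% to 18.4%) of VEGF/LysM arterial-like cells (unthinned 9.84% and 19.8%), shares whose intervals overlap, and in 0.0374% and 0.255% of Plvap-high cells (unthinned 0.227% and 0.443%). The thinned Plvap-high shares leave out 1294 WT and 70 VEGF/LysM cells. Fbln2 was at 146 and 240 CPM (log2 0.72, 0.22 to 1.248), while Fbln5 (0.13, -0.15 to 0.42) and Eln (-0.03, -0.52 to 0.48) were not called. Lama5 was at 112 and 59.3 CPM (-0.92, -1.64 to -0.19), Sparc at 1393 and 962 CPM (-0.53, -0.72 to -0.35) and Col4a2 at 532 and 380 CPM (-0.48, -0.78 to -0.18).

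In capillary-like cells, 1 of 20 measured members was higher (4.56% of 7680 genes) and 5 were lower (7.15%). Col28a1 was at 43.4 and 65.4 CPM (log2 0.59, 0.08 to 1.12). The lower members were Bgn (log2 -0.96, -1.74 to -0.18), Lama3 (-0.72, -1.39 to -0.05), Col15a1 (-0.55, interval below 0), Fbln2 (-0.52, -0.96 to -0.07) and Col8a1 (-0.45, -0.79 to -0.12). Bgn, Lama3 and Col15a1 are all lower in capillary-like cells than in the rest, at 31.1 and 16.1, 37.7 and 22.9, and 76.4 and 52.2 CPM, and the markers of fenestrated cells summed to 1205 and 565 CPM in these cells. Their part in these ratios was not tested. In tip-like cells Lama3 was the only one of 15 measured members called higher (5.07% of 4674 genes), at 137 and 219 CPM (0.68, 0.25 to 1.12), and 0 were lower (5.46%). Basement-membrane genes with high counts there differed little, with Col4a1 at 0.20, Hspg2 at -0.08 and Nid1 at -0.00.

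Some pairs of members ran together across clusters, and others that share a highest class did not. Over the 13 endothelial clusters with at least 20 cells in each library, the correlation of log2 levels (5 CPM added) between Fbln2 and Fbln5 was 0.96 in WT and 0.91 in VEGF/LysM, and that between Col4a1 and Col4a2 was 0.90 and 0.95. Fbln5 also ran with Fn1 (0.88 and 0.91) and Mgp (0.84 and 0.88), and Col13a1 with Tnxb (0.91 and 0.78). Lama3, highest in arterial-like cells like Fbln5, was at 0.08 and -0.44 with it and at -0.19 and -0.63 with Eln. Hmcn1 and Tnxb, both highest in Plvap-high cells among the compared classes, were at -0.67 and -0.48. For Hmcn1 this rank is narrow, at 57.2 and 64.7 CPM against 55.7 and 59.6 CPM in capillary-like cells. Hmcn1 was not called higher in Plvap-high cells, while Tnxb was. These values describe clusters that share a library and its depth and are not tests. No spread over all pairs is set beside them, so they do not show that the named pairs are particular.

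Genes that process or bind this matrix were looked up in lists. Unlike the members, they were not left out of the clustering, so their class levels are not independent of how classes were drawn. Of 28 enzymes that modify or secrete collagen, 20 were measured, and 1 was higher and 5 were lower in VEGF/LysM in all endothelial cells, with a median log2 ratio of -0.08. Over all genes 6.59% were higher and 6.97% lower. P4ha2, a collagen prolyl 4-hydroxylase, was at 13.8 and 20.1 CPM, P3h2, a prolyl 3-hydroxylase, at 39.8 and 25.4 CPM (log2 -0.65) and the crosslinking enzyme Tgm2 at 267 and 209 CPM (-0.36). Of 44 further basement-membrane and vessel-matrix proteins, 26 were measured, 6 higher and 5 lower, with a median of -0.06. Fibrillin-1 (Fbn1), the scaffold of elastic fibres, was at 13.1 and 24.02 CPM (0.88) and, like the elastic members, was high in arterial-like cells (190 and 231 CPM). Vwa1, a perlecan-binding protein, was at 29.7 and 48.2 CPM (0.70) and at 27.3 and 52.2 CPM in Plvap-high cells. Tnc, at 10.8 and 20.8 CPM (0.95), was a capillary-like gene (64.1 and 99.2 CPM), and Igfbp7 was at 384 and 556 CPM (0.53). Cyr61, at 55.3 and 38.7 CPM (-0.51), Ctgf, at 51.5 and 36.9 CPM (-0.48), Ltbp4, at 485 and 372 CPM (-0.38), and Ltbp1, at 155 and 121 CPM (-0.36), were lower. Of 26 matrix receptors, 21 were measured, 2 higher (Itgb4 and Gpc4, named after their values were seen) and 0 lower, with a median of -0.08, and a count of 2 is near the 6.59% over all genes.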

How the data were processed

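Both deposited matrices hold unnormalized UMI counts, whole numbers that the authors made with Cell Ranger (7.0.1 and Seurat with mm10 per the submitters' processing notes, 7.0.0 per the file headers). Annotation release, strand and intron use in counting are not stated there. Only barcodes called as cells were listed. Of 54838 gene identifiers, 54723 matched GENCODE M21, the source of positions and overlaps (GRCm38), and promoter windows came from RefSeq (GRCm38.p6). Ccn1 and Ccn2 were looked up as Cyr61 and Ctgf.

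A barcode needed 500 UMIs, 300 genes and no more than 15% mitochondrial UMIs, and 142 WT and 14 VEGF/LysM barcodes failed this. The highest Scrublet scores were removed at 0.8% per 1000 barcodes (315 and 116 barcodes), since the automatic threshold called 0 and 3. The 5820 and 3677 retained cells were clustered together (scanpy 1.11.5, igraph 0.11.9, 2000 variable genes, 30 principal components, 15 neighbours, Leiden resolution 1) without the genes described, giving 19 clusters, named from 19 marker lists. A name needed a mean log2 enrichment of the list of at least 1 (2 for non-endothelial lists) and a list gene among the 10 leading genes. Clusters led by erythroid or proliferation genes were kept as endothelial with no vessel name. Other clusters without a name were Plvap-high from 700 CPM of Plvap. These limits were set after clusters had been seen.

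UMIs were summed per library and class. Ratios have exact conditional binomial intervals, CPM exact Poisson intervals and shares exact binomial (Clopper-Pearson) intervals (scipy 1.17.1), and equal-mix values intervals by the delta method, at the 95% level. For a count of 0 the limit is 3 counts. With 1 library per group no p-value was computed. The calls were tested on counts simulated by Poisson draws, which hold only the counting error that the intervals assume. Variation between cells and between libraries was not simulated, so the shares that follow do not cover it. In all endothelial cells 82.5% of genes changed 1.5-fold and 96.8% of those changed 2-fold were recovered and 1.75% of unchanged genes were called (12303 genes), and in arterial-like cells 51.8%, 88.9% and 4.08% (3889 genes). For the class contrast of arterial-like cells, 56.6% of 3-fold and 78.9% of 8-fold differences were recovered (12300 genes). There were 10 alternatives, whose effect is given in the closing section.

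The members, the gene lists and the tests were chosen with earlier results of these data known. Given with full values are the basement-membrane core, Sparc, the elastic members, Fn1, Bgn, Hmcn1, Tnxb, Col13a1 and every other measured member with a call in all endothelial cells or in a class contrast. Other matrix genes are named where called in all endothelial cells at 20 CPM or more in either library, at most 4 per direction and list.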

Additional observations from a re-analysis of the deposited data

Results flagged for a closer look

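The library ratio of 2 members pointed in opposite directions in different vessel classes, by intervals that lie on either side of equal levels. Fbln2 was higher in VEGF/LysM arterial-like cells (log2 0.72) and lower in capillary-like cells (-0.52). Lama3 was higher in VEGF/LysM Plvap-high cells (0.46) and tip-like cells (0.68) and lower in capillary-like cells (-0.72). With the same mix of clusters in both libraries, Lama3 in Plvap-high cells was at 0.29 and no longer called. In capillary-like cells the markers of fenestrated cells summed to 1205 CPM in WT and 565 CPM in the other library, and their part in the ratio of Lama3 was not tested. With 1 library per genotype, the difference between classes was not tested.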

How the results depend on the processing

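The 10 alternatives changed 1 choice at a time. Counts are taken as kept within 1.5 times, and other values within their reported 95% interval (for a median, the median bounds of its members), and as reversed where a called value changed sign. Of the values that summarise a comparison, 110 were kept, 10 moved and 0 reversed, and of those of single members 1504 were kept, 124 moved and 2 reversed. Uncalled values also changed sign in all endothelial cells: Col5a2 went from 0.32 to -0.14 with cells thinned, and with the same mix Lamc3 went from 0.22 to -0.50, Col8a1 from 0.10 to -0.39 and Col12a1 from 0.03 to -0.73, the last 2 then called lower. With the same mix of classes or clusters in both libraries, 4 members instead of 8 were higher in all endothelial cells, the median of the elastic members was 0.12 instead of 0.71, and in Plvap-high cells 1 member instead of 3 was higher and 0 instead of 2 lower. Col18a1 then reversed to -0.18 in all endothelial cells. An equal mix in the contrast of capillary-like cells with the rest gave 5 members higher instead of 3. With at least 1000 UMIs per cell, 5 members instead of 3 were lower in all endothelial cells. At clustering resolution 0.6, 1 member instead of 2 was lower in Plvap-high cells. At resolution 1.5, 1 member instead of 5 was higher in Plvap-high cells than in the rest, and the mean log2 difference of Bgn reversed to -0.029. In tip-like cells 3 members instead of 5 were higher than in the rest, both with member genes kept in the clustering and with cells thinned. The equal mix reweights classes or clusters and the cell filter leaves cells out, by construction, and the cause of the other changes was not tested. No paired analysis was possible because each genotype has 1 library and no replicate number. In arterial-like and tip-like cells only 18 and 15 members reached the 50 UMIs asked of a measured gene.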
